A study of Mus musculus with 20 samples.

Results

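In liver RNA of Titan mice and of unselected control mice, 5 pairs of a parent gene and a pseudogene copied from it, 10 genes of the 55573 listed in the files, are described here. The pairs are the parent genes Vcp, Ncoa4, Capza1, Kpna2 and Tma7 with the pseudogenes Vcp-rs, Gm6768, Gm3608, Gm13310 and Gm6916, matched to the files by their Ensembl identifiers. They were chosen by their read counts in these same libraries, in which parent and pseudogene differed in opposite directions between Titan and control mice. The differences between the lines are therefore given as a description, without a test, and tests are given only for comparisons that did not enter this choice. The livers came from 20 males. Titan and control animals were killed at 11 weeks or at 19-21 weeks, with 5 animals per line and age. Titan mice (line DU6) descend from a long selection for high body mass and were rebuilt from a small number of founders, and the controls (line FZTDU) come from the same original crosses and were mated at random without selection. Neither line is inbred to a single genotype, no gene was engineered in either, and all mice had free access to a standard breeding diet. Line is confounded with every genetic difference between the lines, and these cannot be told apart here.

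A processed pseudogene is a copy of a messenger RNA that was reverse transcribed and inserted elsewhere in the genome. It lacks the introns of its parent gene, usually carries no promoter of its own, and is transcribed only where neighbouring sequence drives it. Because it resembles the parent mRNA closely, a sequencing read can be assigned to parent or copy only where their bases differ. Of the parents, Vcp encodes a AAA ATPase that extracts ubiquitinated proteins from membranes and complexes, and Ncoa4 encodes the receptor that delivers ferritin to autophagy. Capza1 encodes an alpha subunit of the protein that caps the growing end of actin filaments, Kpna2 encodes an importin alpha that carries proteins into the nucleus, and Tma7 encodes a small protein associated with the translation machinery.

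Short stretches of coding sequence are shown because they carry some of the bases by which reads of parent and pseudogene are told apart. Sequence that is present in only 1 of the copies also tells them apart and is not shown. They are stretches of 60 bases from the GENCODE M21 transcripts of the reference genome (GRCm38), written 5′ to 3′ along the transcript, with the bases that differ within the pair in capitals. They are not the sequences of the mice studied, whose own bases at these sites were not analysed here. The Vcp stretch lies in exon 13 at chr4:42983517-42983576 on the minus strand, and its copy in Vcp-rs at chrX:104346693-104346752, also on the minus strand.
Vcp: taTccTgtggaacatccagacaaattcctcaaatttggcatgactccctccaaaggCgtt
Vcp-rs: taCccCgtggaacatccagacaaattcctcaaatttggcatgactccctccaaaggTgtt
The differences are T1485C, T1488C and C1539T, with the parent base first and positions counted from the first base of the start codon of the parent. The Ncoa4 stretch lies in exon 8 at chr14:32176506-32176565 on the plus strand, and that of Gm6768 at chr12:119262259-119262318, on the plus strand. It holds A1312G, 1 of only 2 differences between the coding sequence and the copy.
Ncoa4: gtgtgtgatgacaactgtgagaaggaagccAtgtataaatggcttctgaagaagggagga
Gm6768: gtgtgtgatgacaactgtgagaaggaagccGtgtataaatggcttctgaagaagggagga
For Capza1 a stretch of exon 10 is shown (chr3:104825056-104825115, minus strand), and for Gm3608 its copy (chr1:105456712-105456771, plus strand), which differ by A760G.
Capza1: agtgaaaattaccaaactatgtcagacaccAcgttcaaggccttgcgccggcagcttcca
Gm3608: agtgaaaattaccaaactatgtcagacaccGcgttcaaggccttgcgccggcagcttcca
Kpna2 and Gm13310 are the most diverged pair in coding sequence. A stretch of exon 9 of Kpna2 (chr11:106990309-106990368, minus strand) and its copy (chr2:12082840-12082899, minus strand) differ at 6 of 60 bases.
Kpna2: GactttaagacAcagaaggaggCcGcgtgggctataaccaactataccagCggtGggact
Gm13310: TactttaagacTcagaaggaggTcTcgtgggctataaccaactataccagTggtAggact
For Tma7 a stretch of exon 3 (chr9:109082002-109082061, minus strand) and for Gm6916 a stretch of its exon 2 (chr7:128340567-128340626, plus strand) differ by A123G and C155T.
Tma7: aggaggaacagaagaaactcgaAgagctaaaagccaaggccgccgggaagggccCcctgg
Gm6916: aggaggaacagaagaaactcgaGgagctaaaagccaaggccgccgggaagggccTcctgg

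Over their whole length the copies matched their parents at 96.96% to 99.89% of aligned bases. Vcp-rs (chrX:104345829-104348234, minus strand) is a single exon of 2406 bases that spans exactly the coding sequence of Vcp (chr4:42979963-43000507, minus strand, 17 exons). It carried 8 differences, all of which leave the amino acid the same, and lacks 15 bases, so that its reading frame runs to a stop at codon 802 against 807 codons in Vcp. Gm6768 (chr12:119260978-119262855, plus strand) spans the 1878 coding bases of Ncoa4 (chr14:32159865-32179855, plus strand) with 2 differences, both of which change the amino acid, and an open reading frame of the same 626 codons. Gm3608 (chr1:105455971-105458829, plus strand) spans the coding sequence of Capza1 (chr3:104822779-104864505, minus strand) with 860 of its 861 bases aligned, 3 differences in it and 5 outside, and 3 gaps in all (1 base missing and 2 stretches of 2 extra bases). Gm13310 (chr2:12082612-12083992, minus strand) covers 86.86% of the coding sequence of Kpna2 (chr11:106988629-106999541, minus strand), with 42 differences and 6 gaps. Like Gm3608, Gm6916 (chr7:128314784-128340805, plus strand) is annotated with 2 exons. It differs in kind, since only 381 of the 828 bases of its transcript align to Tma7 (chr9:109074568-109082587, minus strand). It retains the 65 codons of Tma7 with 4 differences. The annotation calls Gm3608 a pseudogene, Gm6916 a transcribed processed pseudogene and the other 3 processed pseudogenes.

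These differences limit how many reads can be assigned at all, because the deposited counts leave out reads that map to more than 1 position. Of all stretches of 50 bases in the pseudogene, 16.76% in Vcp-rs, 5.467% in Gm6768 and 17.94% in Gm3608 do not occur in the parent transcript. The share was 79.28% in Gm13310 and 91.78% in Gm6916. The parents have more such stretches, since UTRs are not copied in Vcp-rs and Gm6768: 39.94% in Vcp, 56.95% in Ncoa4, 26.69% in Capza1, 86.23% in Kpna2 and 92.85% in Tma7. The read length is not given in the sources used here. With stretches of 100 bases the shares in the pseudogenes were 28.22%, 11.24%, 32.15%, 96.33% and 100% in the same order. Within the pairs the share was lowest in Gm6768 among the pseudogenes and in Capza1 among the parents. Each share compares a gene with the other member of its pair only. Stretches that also occur in further copies or elsewhere in the genome were not left out. For example, Gm10259 matches Kpna2 at 99.811% over 1590 bases, and Tma7-ps matches Tma7 at 98.974% over 195 bases. The shares of Kpna2 and Tma7 are therefore not the part of their reads that can be assigned.

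The libraries held 6794935 to 23295028 reads on genes, and all 10 members were among the 13783 genes kept by the filter for low counts. Levels are given as CPM, the usual depth-scaled read count of a gene (here after TMM adjustment of the library totals), and levels of different genes are compared only as RPKM, that is CPM per kilobase of exon. All 10 hepatocyte markers examined had reads in every mouse, with a summed level of 92447 to 131449 CPM. Between the lines, 3 hepatocyte markers (Cyp2e1, Apoa1, Cps1) and 2 of 7 endothelial markers (Kdr, Pecam1) were lower in Titan mice and the stellate marker Des was higher at 11 weeks, and the hepatocyte marker Ass1 and the endothelial markers Lyve1 and Oit3 were lower at 19-21 weeks (edgeR adjusted p under 0.05). At 11 weeks these were 30% of the hepatocyte, 28.6% of the endothelial and 14.3% of the stellate markers, beside 14.9% of all tested genes. At 19-21 weeks they were 10% of the hepatocyte and 28.6% of the endothelial markers, beside 9.12%. By sign alone, 0 of the 7 endothelial markers were higher in Titan mice at either age. No tested Kupffer, cholangiocyte, erythroid or cycling marker passed, and the part of other cell types in the results was not tested. In whole liver, fewer cells of a type and less RNA per cell cannot be told apart. Index sequences recur among the libraries, so they were sequenced in several pools, and the pool of each library is not known.

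In 3 pairs the parent was higher and the pseudogene lower in Titan mice, and in the other 2 pairs the parent was lower and the pseudogene higher. At 11 weeks the 5 Titan and 5 control values did not overlap for 10 of 10 members (11.9% of all tested genes), and at 19-21 weeks for 8 of 10 (7.63% of all tested genes), as the choice of the pairs implies. The exceptions at 19-21 weeks were Capza1 and Gm3608. The plot of levels by mouse shows each pair with its 20 values.

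**Figure D1:**
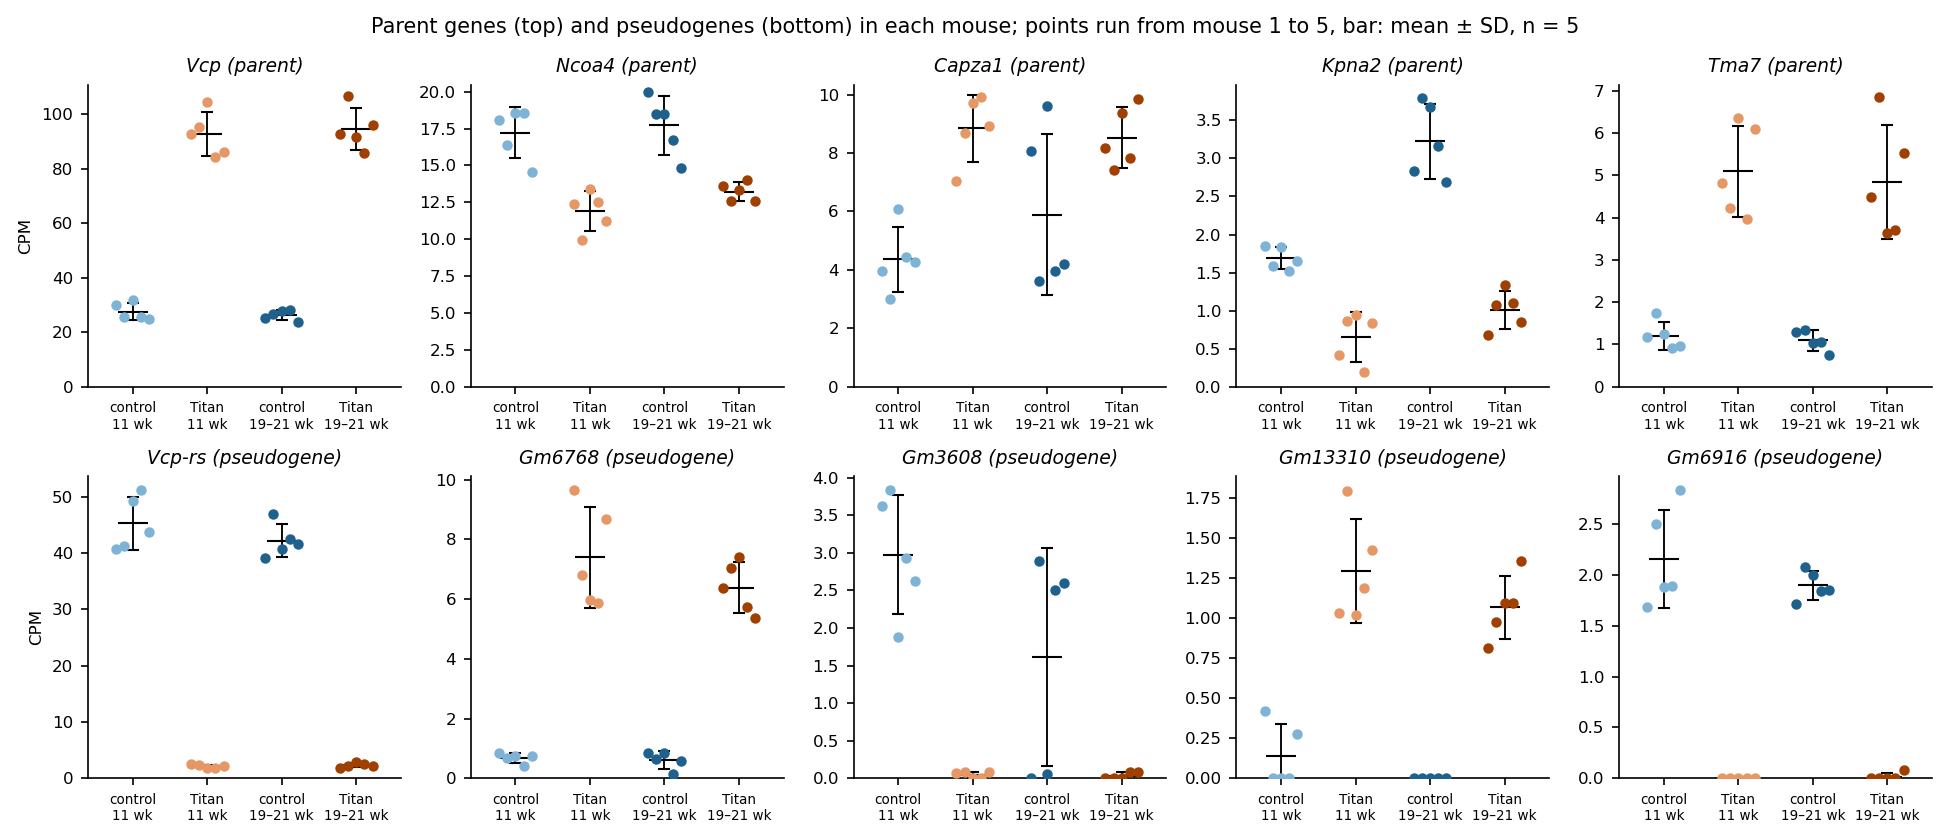
Level of the 5 parent genes (top row) and their pseudogenes (bottom row) in CPM, per mouse, in the 4 groups. Points run from mouse 1 to mouse 5 within a group, and bars give the mean ± SD (n = 5). In each column the parent and the pseudogene lie on opposite sides between control and Titan groups, and 2 control mice of 19-21 weeks lie with the Titan mice in Capza1 and Gm3608.

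Vcp and Vcp-rs had the most reads. In controls of 11 weeks Vcp measured 29.9, 25.7, 31.7, 25.5 and 24.97 CPM in mice 1 to 5, and in Titan mice of that age 92.6, 95.1, 104.6, 84.3 and 86.3 CPM. Every Titan mouse thus had a higher level of every control. Vcp-rs measured 40.7, 41.2, 49.3, 51.2 and 43.8 CPM in these controls and 2.48, 2.34, 1.90, 1.89 and 2.18 CPM in these Titan mice. The means at 19-21 weeks were 26.4 ± 1.75 (control) and 94.5 ± 7.71 CPM (Titan) for Vcp (SD, n = 5), and 42.2 ± 2.93 and 2.34 ± 0.413 CPM for Vcp-rs. On the log2 scale Vcp was higher in Titan mice by 1.75 ± 0.08 (SE) at 11 weeks and 1.84 ± 0.08 at 19-21 weeks, and Vcp-rs differed by -4.38 ± 0.11 and -4.16 ± 0.11. Per kilobase of exon the pseudogene was the higher of the pair in controls of 11 weeks (18.8 ± 1.98 against 5.68 ± 0.625 RPKM) and the parent in Titan mice (19.1 ± 1.66 against 0.897 ± 0.110 RPKM). These RPKM values divide by all exon bases, although only part of them tells the copies apart. Vcp shares 352 exon bases with 1700022I11Rik on the other strand, and counts that ignore the strand kept only 55% to 59.39% of its reads in the 4 groups.

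Ncoa4 and Gm6768 differed the other way, and the parent by less. Ncoa4 measured 18.1, 16.4, 18.6, 18.5 and 14.6 CPM in 11-week-old controls and 12.4, 9.92, 13.4, 12.5 and 11.2 CPM in 11-week-old Titan mice. The values of the lines did not overlap, with the lowest control at 14.6 and the highest Titan mouse at 13.4 CPM. Gm6768 measured 0.844, 0.666, 0.743, 0.427 and 0.759 CPM in these controls (51 reads in all) and 9.65, 6.80, 5.98, 5.86 and 8.70 CPM in these Titan mice (575 reads). At 19-21 weeks Ncoa4 was at 17.7 ± 1.97 CPM in controls and 13.2 ± 0.625 CPM in Titan mice, and Gm6768 at 0.614 ± 0.298 and 6.39 ± 0.861 CPM (SD, n = 5). The log2 fold changes of Ncoa4 were -0.54 ± 0.10 and -0.42 ± 0.10 (SE), and those of Gm6768 were 3.43 ± 0.24 and 3.26 ± 0.25. Per kilobase Gm6768 was below Ncoa4 in 11-week-old controls (0.366 ± 0.085 against 1.84 ± 0.185 RPKM) and above it in Titan mice (3.94 ± 0.902 against 1.27 ± 0.144 RPKM). These values too divide by all exon bases. Only 5.467% of the 50-base stretches of Gm6768 are absent from Ncoa4, while 56.95% of those of Ncoa4 are absent from Gm6768. The order of the pair in controls can therefore not be read from RPKM.

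Tma7 was higher in Titan mice, and Gm6916 had almost no reads in them. Tma7 measured 1.18, 1.75, 1.24, 0.915 and 0.966 CPM in 11-week-old controls and 4.82, 4.22, 6.35, 3.97 and 6.09 CPM in 11-week-old Titan mice. All Titan mice lay above all controls at this age, and also at 19-21 weeks, where the means were 1.09 ± 0.238 and 4.84 ± 1.35 CPM (SD, n = 5). Gm6916 had 20, 30, 38, 31 and 41 reads in 11-week-old controls and no read in any 11-week-old Titan mouse. At 19-21 weeks it had 20, 23, 37, 14 and 22 reads in controls, and a single read in 1 of the 5 Titan mice (mouse 5). Taking 3 reads over the group as the floor of a count of 0, the pseudogene was at least 53.3-fold lower in Titan mice at 11 weeks. At 19-21 weeks the ratio of control to Titan was 94.4, with an exact 95% counting interval of 16.6 to 3759. Such intervals and floors cover counting error only. Tma7 was higher by 2.09 ± 0.22 and 2.14 ± 0.23 on the log2 scale (SE). Its exons share 75 bases with Ccdc51 on the other strand.

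Capza1 and Gm3608 divided the controls. Gm3608 had 43, 46, 38, 48 and 38 reads in the 11-week-old controls and 1, 1, 0, 0 and 2 in the Titan mice of that age. At 19-21 weeks the controls had 0, 32, 1, 19 and 31 reads, so that mice 1 and 3 were at the level of the Titan mice (0, 0, 0, 1 and 1 reads). Capza1 followed the reverse order in the same mice: 8.06, 3.61, 9.60, 3.95 and 4.195 CPM in controls 1 to 5 of 19-21 weeks, against 8.16, 7.43, 9.36, 7.84 and 9.86 CPM in Titan mice. Controls 1 and 3 thus lay within the range of Titan mice for both genes and the other 3 controls outside it. Among 11-week-old controls Capza1 measured 3.96, 2.999, 6.09, 4.45 and 4.28 CPM, and mouse 3, the highest, was also the lowest for Gm3608 (1.88 CPM, the others 2.62 to 3.83 CPM). The pseudogene held 23.6% of the reads of the pair in that mouse (95% Wilson interval 17.7% to 30.7%, 161 reads) and 38.0% to 56.1% in the other 4. In control 1 of 19-21 weeks it held 0 of 94 reads, which allows a share of up to 3.19%, and in control 3 it held 1 of 179 (0.559%, interval 0.0987% to 3.10%). The log2 fold changes between the lines were 1.004 ± 0.23 and 0.51 ± 0.23 (SE) for Capza1 and -5.57 ± 0.90 and -4.94 ± 1.13 for Gm3608, and the smaller value of Capza1 at 19-21 weeks includes those 2 controls. In reads adjusted for depth, Gm3608 was 53.2-fold lower in Titan mice at 11 weeks (4 against 213 reads, exact interval 20.5 to 197) and 33.8-fold at 19-21 weeks (2 against 83 reads, interval 9.06 to 283).

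**Figure D2:**
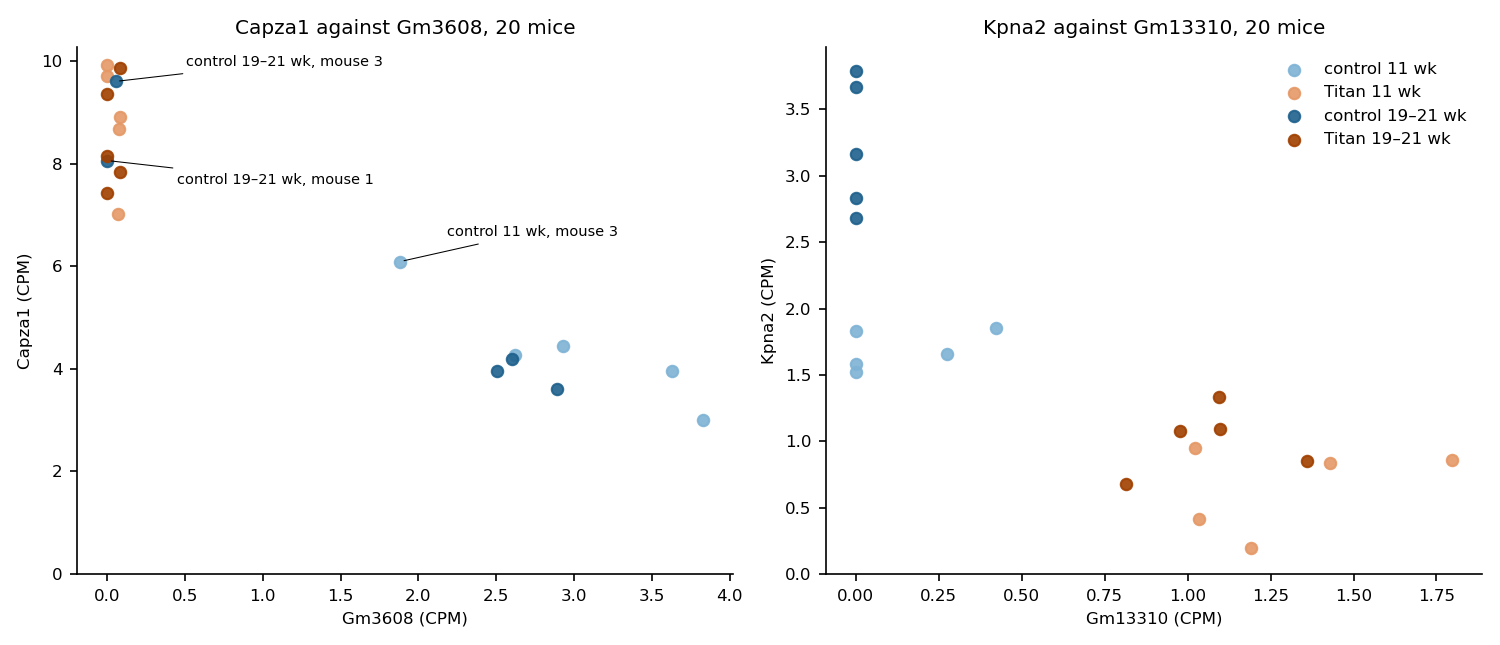
Left, Capza1 against Gm3608, and right, Kpna2 against Gm13310, in CPM, with 1 point per mouse and colours for the 4 groups. On the left 2 controls of 19-21 weeks (mice 1 and 3) lie among the Titan mice and 1 control of 11 weeks (mouse 3) lies between, and on the right the 5 controls of 19-21 weeks have no Gm13310 read and the highest Kpna2.

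Kpna2 and Gm13310 had the fewest reads. Gm13310 had 5, 0, 0, 0 and 4 reads in 11-week-old controls and 15, 23, 14, 12 and 34 in 11-week-old Titan mice. At 19-21 weeks it had no read in any control and 6, 10, 9, 13 and 16 reads in Titan mice. The lines did not overlap at either age, and at 19-21 weeks the pseudogene was at least 22.1-fold higher in Titan mice by the floor of 3 reads over the group. Kpna2 measured 1.86, 1.58, 1.83, 1.52 and 1.66 CPM in 11-week-old controls and 0.413, 0.860, 0.949, 0.199 and 0.840 CPM in 11-week-old Titan mice. At 19-21 weeks it measured 2.83, 3.79, 3.67, 3.16 and 2.68 CPM in controls and 0.680, 1.07, 1.34, 1.10 and 0.850 CPM in Titan mice. Its log2 fold changes between the lines were -1.31 ± 0.26 and -1.67 ± 0.25 (SE), and that of Gm13310 at 11 weeks was 3.299 ± 0.57. Without control mouse 1 of 11 weeks, 1 of the 2 controls with reads, the value of Gm13310 was 4.15. Kpna2 is a gene of dividing cells, and the 5 cycling markers (Mki67, Top2a, Cdk1, Ccnb1, Birc5) were low in all groups. Their summed level ran from 4.56 to 12.6 CPM in 11-week-old controls, 6.68 to 23.5 in 11-week-old Titan mice, 2.81 to 9.98 in 19-21-week-old controls and 4.08 to 10.2 in 19-21-week-old Titan mice. None of the 3 tested markers passed the threshold between the lines, and their part in the result was not tested.

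The reads of each pair were then summed, so that a read counts the same on whichever copy it was placed. Reads that fit both copies are left out of the sum as well. Parent and pseudogene differ in how much of their sequence can be assigned, so the sum can still vary with the division between them. The sums of the Ncoa4 pair differed between the lines by 0.11 ± 0.09 on the log2 scale at 11 weeks and 0.09 ± 0.09 at 19-21 weeks (SE), each about as large as its own error. The groups overlapped, with 17.9 ± 1.70 and 19.3 ± 1.97 CPM at 11 weeks and 18.3 ± 2.15 and 19.6 ± 1.04 CPM at 19-21 weeks for control and Titan mice (SD, n = 5). Capza1 and Gm3608 together differed by 0.27 ± 0.12 and 0.18 ± 0.13, with overlapping groups at both ages. In 19-21-week-old controls the sum spanned 6.46 to 9.66 CPM, against 7.43 to 9.94 CPM in Titan mice. For Vcp and Vcp-rs together the difference was 0.38 ± 0.07 and 0.50 ± 0.07, and for Tma7 and Gm6916 0.61 ± 0.18 and 0.70 ± 0.19, so that both sums were higher in Titan mice but far less than the parents. The Vcp sum did not overlap between the lines at either age (66.9 to 80.98 against 86.2 to 106.5 CPM at 11 weeks). It depends on the counting. Counts over both strands kept only 55% to 59.39% of the reads of Vcp in the 4 groups, and the sum then differed by -0.18 and 0.04. The cause of this loss of reads was not tested. The Kpna2 sum differed by 0.11 ± 0.19 at 11 weeks and -0.63 ± 0.19 at 19-21 weeks.

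**Figure D3:**
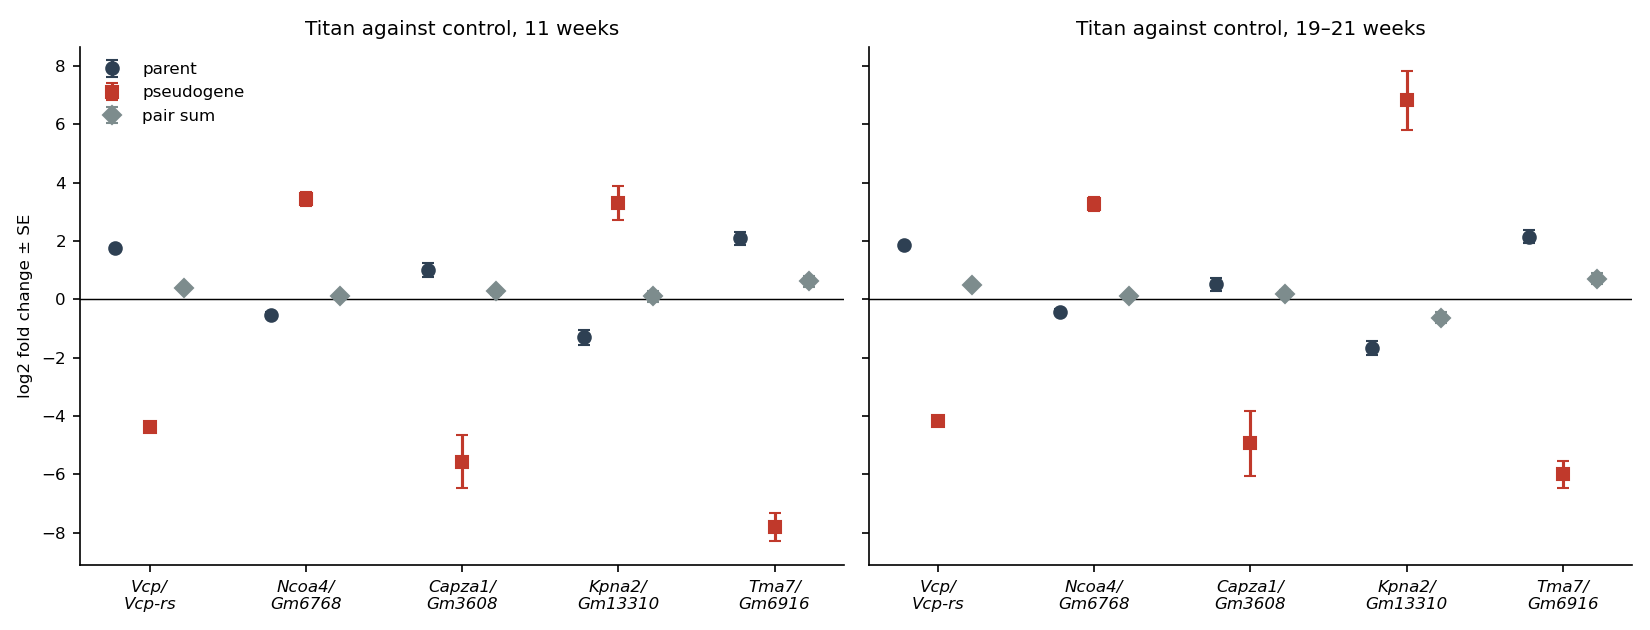
Log2 fold change ± SE of Titan against control mice at 11 weeks (left) and 19-21 weeks (right) for parent, pseudogene and the sum of both, in each of the 5 pairs (5 against 5 mice). Parent and pseudogene lie on opposite sides of 0 in every pair while the sums lie between -0.63 and 0.70, and fitted values of Gm13310 and Gm6916 depend on the handling of counts of 0.

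The share of pair reads on the pseudogene compares both genes within a library and needs no scaling. It covers only reads that could be assigned, so it is not the share of transcripts. In controls and Titan mice of 11 weeks it was 62.1% ± 3.35 and 2.29% ± 0.322 for Vcp-rs, 64.0% ± 6.89 and 0% for Gm6916, and 41.0% ± 12.1 and 0.560% ± 0.512 for Gm3608 (SD, n = 5). It was 3.88% ± 1.02 and 38.2% ± 6.34 for Gm6768 and 6.56% ± 9.11 and 67.9% ± 12.4 for Gm13310. In Titan mice of 11 weeks Gm6916 had 0 of 396 reads of its pair, which allows a share of up to 0.758%, and in controls of 19-21 weeks Gm13310 had 0 of 199, which allows up to 1.51%. The shares of the lines did not overlap in any pair at 11 weeks. At 19-21 weeks the Capza1 pair was the exception.

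**Figure D4:**
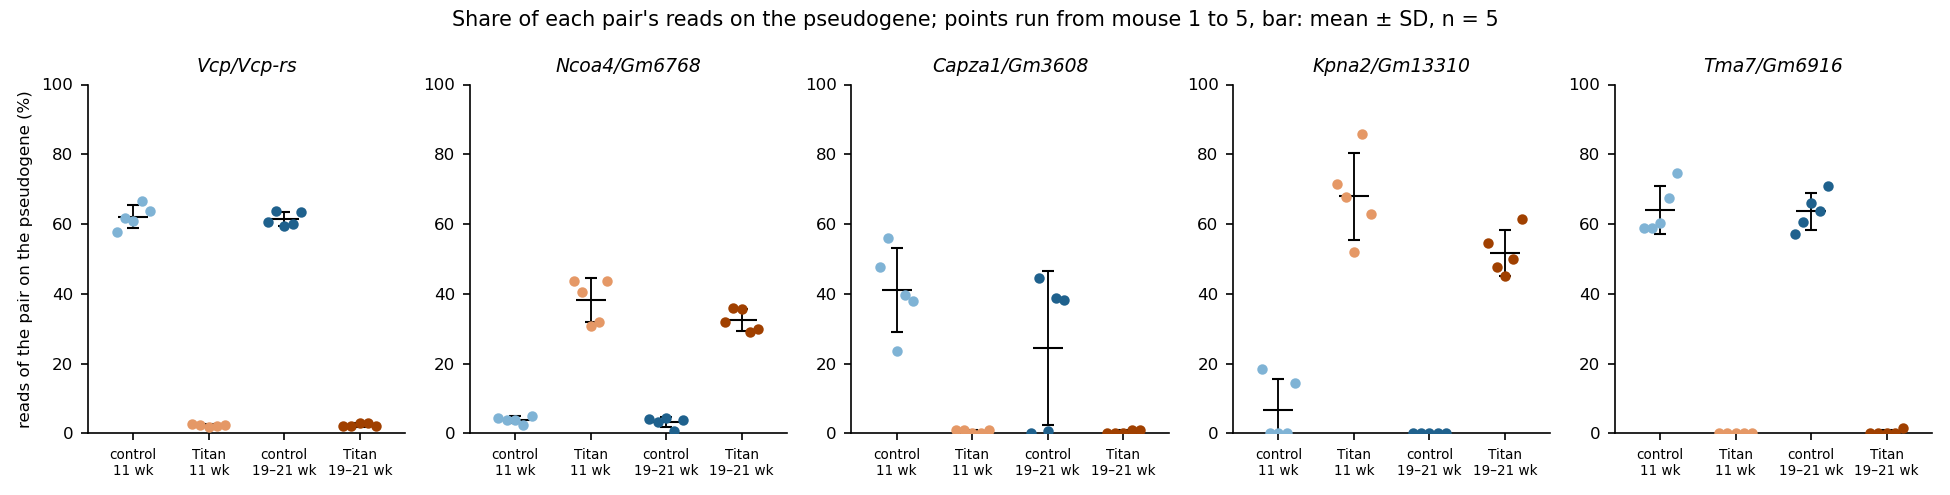
Percent of the reads of each pair that lie on the pseudogene, per mouse, in the 4 groups. Points run from mouse 1 to mouse 5 and bars give the mean ± SD (n = 5). Vcp-rs and Gm6916 hold over 57% in every control and at most 3.09% in every Titan mouse, and Gm6768 holds 29.1% to 43.8% in Titan mice and at most 4.95% in controls.

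Age did not enter the choice of the pairs and could be tested. The question was whether the levels of the members, or their division within a pair, changed between 11 and 19-21 weeks. With edgeR's quasi-likelihood test, adjusted by Benjamini-Hochberg over 13783 genes, 0 of 10 members passed an adjusted p of 0.05 in controls, where 0.0871% of all tested genes did. In Titan mice 0 of 10 passed (1.25% of all tested genes) and 0 of 10 were without overlap between the ages (2.97%), and for the interaction of line and age 0 of 10 (0.00726%). These counts were limited in advance for members with few or no reads in a line: Gm6916 (0 and 1 reads) and Gm3608 (4 and 2) in Titan mice and Gm13310 (9 and 0) in controls passed the filter on low counts only through the other line and could hardly be called or separate by age there. At an unadjusted p under 0.05 there were 2 members in controls, 0 in Titan mice and 1 for the interaction, and DESeq2 called 1 member in controls and 0 in both other comparisons. The member called by DESeq2 was Kpna2. It measured 1.69 ± 0.148 CPM in controls of 11 weeks and 3.23 ± 0.492 CPM in controls of 19-21 weeks (SD, n = 5), and all 5 older controls lay above all 5 younger ones, which held for 1.02% of all tested genes. Its log2 difference between the ages was 0.93 ± 0.23 (SE), with an edgeR adjusted p of 0.165 (unadjusted 0.000586) and a DESeq2 adjusted p of 0.0246. In Titan mice Kpna2 was at 0.652 ± 0.328 and 1.01 ± 0.252 CPM at the 2 ages, a difference of 0.57 ± 0.29 with an edgeR adjusted p of 0.340. The difference between these age effects had an edgeR adjusted p of 0.846. The other member at an unadjusted p under 0.05 in controls, and the one for the interaction, was Gm13310, whose 9 reads in 2 of the younger controls are too few for its fitted values to be read as a change with age.

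For the members with many reads in both lines the differences between the ages were small. The log2 differences of 19-21 against 11 weeks were -0.06 ± 0.08 and 0.03 ± 0.08 for Vcp in controls and Titan mice, -0.10 ± 0.09 and 0.11 ± 0.13 for Vcp-rs, and 0.04 ± 0.10 and 0.15 ± 0.10 for Ncoa4 (SE). Those of Tma7 were -0.13 ± 0.25 and -0.08 ± 0.20. Over the 10 tests of the pseudogene share between the ages (5 pairs in 2 lines, two-sided exact permutation tests, smallest possible p 0.00794), none passed after adjustment. A pair that alone reached this smallest p could not have passed the adjustment over 10 tests. Gm6916 and Gm3608 in Titan mice and Gm13310 in controls had few or no reads, so their shares could hardly differ. These tests therefore say little about a change with age. The smallest p belonged to Gm13310 in Titan mice, whose share was 67.9% ± 12.4 at 11 weeks and 51.7% ± 6.51 at 19-21 weeks (exact permutation p = 0.0317, adjusted p = 0.317). For Gm3608 in controls the share was 41.0% ± 12.1 and 24.4% ± 22.2, the latter with 2 mice at or near 0 (exact permutation p = 0.206, adjusted p = 0.688). For Vcp-rs the shares of the ages differed by -0.613 percentage points in controls and 0.148 in Titan mice (exact permutation p = 0.730 and 0.603, adjusted p = 0.952 for both).

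Genes that act with the parents were examined from lists of 120 genes, of which 113 were tested. At 11 weeks 2 were higher and 6 lower in Titan mice, and at 19-21 weeks 1 was higher and 3 lower. This was 7.08% and 3.54% of the genes tested, where 14.9% and 9.12% of all genes passed the threshold (7.23% higher and 7.69% lower at 11 weeks, 4.24% and 4.88% at 19-21 weeks). Of 32 tested cofactors of Vcp, 1 rose and 1 fell at 11 weeks, and the median log2 fold change of the list was -0.09 (all genes -0.02). Ubxn2a, a UBX domain cofactor, rose from 27.5 ± 1.83 to 34.3 ± 3.52 CPM (edgeR adjusted p = 0.0128), and Aspscr1, which disassembles Vcp hexamers, fell from 57.7 ± 5.84 to 46.3 ± 3.17 CPM (edgeR adjusted p = 0.00481). Aspscr1 also fell at 19-21 weeks, by 0.27 on the log2 scale (edgeR adjusted p = 0.0248), as did Rhbdd1, a rhomboid protease of the endoplasmic reticulum, by 0.30 (edgeR adjusted p = 0.0128). Reads assigned to Vcp differed by 1.75 at 11 weeks and the sum of Vcp and Vcp-rs by 0.38, and a link of the list to either was not tested. Among 22 tested genes of ferritin and iron handling, Slc40a1, the iron exporter, rose by 0.65 ± 0.15 at 11 weeks (edgeR adjusted p = 0.00463). Ireb2, an RNA-binding regulator of iron genes, and Trf, transferrin, fell at 11 weeks by 0.32 and 0.39 (edgeR adjusted p = 0.0225 and 0.0454). Tfr2, a transferrin receptor of hepatocytes, fell at 19-21 weeks by 0.32 (edgeR adjusted p = 0.0198).

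Of 27 tested genes of actin capping and related complexes, Dctn3, a dynactin subunit, fell by 0.61 at 11 weeks (edgeR adjusted p = 0.0495), and Arpc1b, a subunit of the Arp2/3 complex, rose by 0.36 at 19-21 weeks (edgeR adjusted p = 0.0272). Of 25 nuclear import genes, Rcc1, the exchange factor of Ran, and Tnpo3, a transportin, fell at 11 weeks by 0.68 and 0.20 (edgeR adjusted p = 0.0109 and 0.0373), and 0 passed at 19-21 weeks. Of the 7 translation-associated genes 0 passed at either age. The median log2 fold changes at 11 weeks were -0.05 for the iron list, 0.01 for actin capping, -0.02 for nuclear import and -0.01 for the translation list, and over all 5 lists those at 19-21 weeks ran from -0.09 to -0.03 (all genes 0.01). Several of these calls were lost when a single mouse was left out: Dctn3 with 16 of 20 mice, Trf with 10, Tnpo3 with 8, Arpc1b with 5, Ireb2 with 4, Aspscr1 at 19-21 weeks with 4, and Tfr2 without control mouse 2 of 19-21 weeks (edgeR adjusted p = 0.0607). The number called at 11 weeks was 5 without control mouse 5 or Titan mouse 1, 2 or 5 of that age or without Titan mouse 3 of 19-21 weeks. At 19-21 weeks it was 7 without control mouse 2 or Titan mouse 3 of 11 weeks, and 9 and 2 without Titan mice 2 and 4 of 19-21 weeks.

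The nearest tested genes on both sides of the members, 19 in all, were read at the same loci. At 11 weeks 3 of 19 were lower and 0 higher in Titan mice, and at 19-21 weeks 2 were lower and 0 higher, which is 15.8% and 10.5% beside 14.9% and 9.12% of all genes. Pign, a gene of GPI anchor synthesis on the other strand, has its 3′ end 59593 bases beyond Gm3608. It fell from 42.9 ± 3.85 to 28.9 ± 1.35 CPM at 11 weeks and from 44.3 ± 2.70 to 28.4 ± 1.77 CPM at 19-21 weeks (edgeR adjusted p = 1.18e-05 and 9.94e-06). Its groups did not overlap, and all 5 controls of 19-21 weeks, mice 1 and 3 included, lay between 40.6 and 48.1 CPM. Fancg, a DNA repair gene 1836 bases from Vcp on the same strand, fell by 0.61 and 0.89 on the log2 scale (edgeR adjusted p = 0.0130 and 0.00198), the opposite direction to Vcp, and at 11 weeks the call was lost without control mouse 3 (0.0506). Ccdc51, which overlaps the start of Tma7 on the other strand, fell by 0.52 at 11 weeks (edgeR adjusted p = 0.0333) and lost the call with any of 6 mice left out.

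The members were also set beside all annotated pseudogenes. Of 227 tested pseudogenes that matched a protein-coding transcript with at least 90% identity over at least 100 bases, 203 had a tested parent. Parent and pseudogene were both called in opposite directions in 9 of 203 pairs at 11 weeks (4.43%), of which 5 are the pairs described here, and in 8 of 203 at 19-21 weeks (3.94%), of which 4 are. The Capza1 pair was the exception at 19-21 weeks, where Capza1 alone did not pass the threshold. Both members were called in the same direction in 8 pairs at 11 weeks and 1 pair at 19-21 weeks. The direction alone was opposite in 103 and 94 of the 203 pairs. Since these comparisons chose the pairs, the counts are a description.

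**Figure D5:**
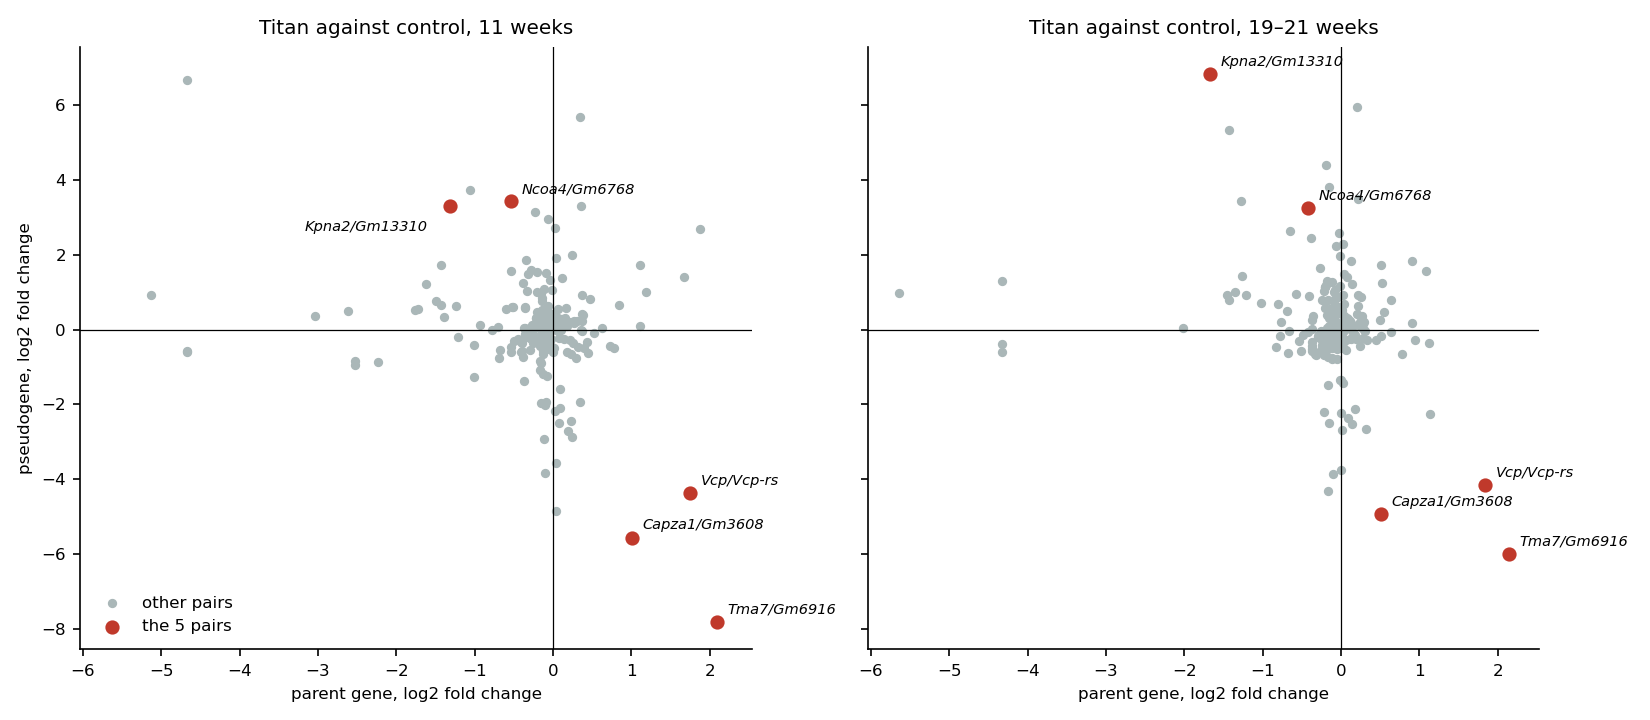
Log2 fold change of Titan against control mice for the pseudogene (vertical axis) and its parent (horizontal axis) in 203 pairs of tested genes, at 11 weeks (left) and 19-21 weeks (right). The 5 pairs (red, named) lie where parent and pseudogene have opposite signs, at the upper left and the lower right, as do 103 and 94 of the 203 pairs at the 2 ages.

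The parents have other annotated copies as well. At 90% identity or more over at least 100 bases, Vcp and Ncoa4 have 1 copy each, the member itself, while Capza1 has 3, Kpna2 11 and Tma7 9. Of these 25 copies the 5 members alone passed the filter on low counts. The 10 other copies of Kpna2 had 221 reads over all 20 mice and the 8 other copies of Tma7 had 28. Gm15610, a copy of Tma7, had 21 and 5 reads in controls of 11 and 19-21 weeks and 0 in Titan mice of both ages. Gm12919, a copy of Kpna2, had 3 and 0 reads in these controls and 14 and 9 in these Titan mice. The copies of Kpna2 with the most reads did not share this direction: Gm49215 had 43 and 37 reads in controls and 34 and 32 in Titan mice of 11 and 19-21 weeks, and Kpna2-ps 16 and 13 against 10 and 5. These copies were singled out after their values were seen and were too low to be tested.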

How the data were processed

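Liver RNA was extracted with Trizol, depleted of rRNA and made into directional libraries. Per the paper's methods and the labels, the authors mapped reads to GRCm38 with STAR 2.5.3a and deposited raw read counts per gene without normalization, in a column for both strands together and a column per strand. Multi-mapped and ambiguous reads are not in them. The column of the transcribed strand, with 96.83% to 97.55% of strand-assigned reads, was used, from 6794935 to 23295028 reads on genes per mouse. Groups follow the sample titles. As in the study's methods, Y-linked genes (1562) and histones (111) did not enter the fit.

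Counts were fitted with edgeR 4.0.16 (R 4.3.3): filterByExpr, TMM scaling, and quasi-likelihood F tests, two-sided, in a single fit of the 4 groups over 13783 genes. The SE of a log2 fold change was derived from its F statistic. The p values measure the spread between the mice sampled. Shares were compared by exact permutation. Sequences are GENCODE M21 transcripts, aligned with Biopython 1.88, and pseudogenes were matched with BLAST 2.17.0. The Python (3.11.15) packages were scipy 1.17.1, numpy 2.4.6, matplotlib 3.10.9 and pandas 2.3.3. The fit was tested on simulated data. The members and gene lists were chosen with earlier results of these data known. Named besides the members are up to 3 called genes with the smallest p per list and age, called neighbours, and the 2 genes most like each member over the 20 mice. The alternatives were DESeq2 1.42.0, RLE size factors, both strands, no filter or at least 10 counts in every mouse, a block for the replicate number, fits on only the groups compared, Y and histone genes kept, and each mouse left out. Pair sums were added after values had been seen. Some items are not reported here.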

Additional observations from a re-analysis of the deposited data

Results flagged for a closer look

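Over 80 sets of 5 values (level of each member, share of each pair and sum of each pair in each group), 2 had a single mouse far from the others, and chance alone gives about 1 in 20. Both are the same mouse and the same read. In Titan mouse 5 of 19-21 weeks Gm6916 measured 0.085 CPM, from 1 read, and 0 in the other 4 Titan mice of this age. Its share of the reads of the Tma7 pair was 1.52% in this mouse and 0% in the others. Without this mouse Gm6916 had no read in any Titan mouse, and the fitted log2 fold change at 19-21 weeks moved from -6.00 to -7.64. The 2 controls of 19-21 weeks with Gm3608 at 0 and 1 read do not stand out in this way, because they are 2 of 5 (0 and 0.054 CPM beside 2.504 to 2.89 CPM in the other 3).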

How the results depend on the processing

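The 5 pairs kept opposite signs at both ages under DESeq2, RLE size factors, counts over both strands, no filter, the replicate block, Y and histone genes kept, and with each mouse left out (5 in all 20 settings at either age). Since the pairs were chosen by this contrast in the same libraries, the kept signs are a description and no support for it. With at least 10 counts in every mouse only 1 pair could be fitted at each age, and it was opposite (1 at 11 weeks and 1 at 19-21 weeks). With only the groups compared, 3 pairs could be fitted at 19-21 weeks and 3 were opposite. Fewer genes pass those filters. The sum of Vcp and Vcp-rs reversed, from 0.38 to -0.18 at 11 weeks, with counts over both strands. Those counts kept only 55% to 59.39% of the reads of Vcp in the 4 groups. DESeq2 called 1 member between the ages in controls, where edgeR called 0, and with each mouse left out edgeR called 0. Partner genes called at 11 weeks went from 8 to 5 with RLE size factors, no filter, at least 10 counts in every mouse or the replicate block, and to 3 with only the groups compared. Leaving out a mouse gave 5 to 9. At 19-21 weeks they went from 4 to 10 with DESeq2, and to 2 to 9 with a mouse left out. Neighbours called at 11 weeks were 1 to 3 with a mouse left out. The cause of these shifts was not tested. The replicate numbers of the titles do not pair the mice: deviations of same-numbered mice correlated between -0.144 and 0.175, and 4 of 20 mice were most like one of their own number. With the replicate block 0 members passed between ages. When the shares were compared by sign flips within replicate numbers, 0 tests passed. None could have, since the smallest possible p of that test is 0.0625. Depth limits the Kpna2 pair most, with 104 to 199 reads per group.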

Other observations

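Besides the 5 pairs, 6 pseudogene and parent pairs were called in opposite directions at 1 age or both, and 2 of them at both ages. Those named here were picked after their values were seen. Rps24, a ribosomal protein gene, was lower in Titan mice by 1.43 on the log2 scale at both ages, and its pseudogene Rps24-ps3 was higher by 1.72 and 5.34 (edgeR adjusted p = 0.0428 and 0.000222). Rad1, a DNA damage checkpoint gene, was higher by 0.78 and 1.12, and Gm10033 lower, at -0.48 and -0.35 (edgeR adjusted p = 0.00186 and 0.0322). Rps2 with Rps2-ps13 was called in opposite directions at 11 weeks, and Chchd2 with Gm6222 and Gcsh with CR555305.2 at 19-21 weeks.

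The levels of the members over the 20 mice resembled those of other genes that separate the lines. This is a description over mice of 2 lines that lie apart for these genes, and the Pearson r of log2 CPM mostly repeats that gap. Vcp was most like Hsp25-ps1 (0.98) and Hba-a2 (0.98), Vcp-rs most like Gm6916 (0.99) and Gm4875 (0.97), and Tma7 most like Vcp (0.97) and Cep83os (0.94). Gm6916 was most like Vcp-rs (0.99) and Hsd3b3 (0.97), and Gm6768 most like Hba-a2 (0.97) and Vcp (0.96). Ncoa4 was most like C4a (0.90) and Polb (0.89), Capza1 most like Tnfrsf12a (0.86) and Ttf2 (0.86), and Gm3608 most like Pla1a (0.87) and Wwp2 (0.86). Kpna2 was most like Clic5 (0.94) and Auh (0.88), and Gm13310 most like Arsb (0.94) and Unc13b (0.94). The r of Capza1 and Gm3608 were the lowest, in the pair whose levels differed among controls.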
